A study of Mus musculus with 16 samples.

Results

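Potassium channel genes were followed in the whole retina of C57BL/6J wildtype mice with oxygen-induced retinopathy (OIR) and of control mice. The genes were chosen by name. Of 99 gene symbols that start with Kcn, 92 remained after Kcnj8, Kcnj10 and 5 antisense or overlapping transcripts were left out. Of these, 85 reached 10 counts in at least 2 libraries and are the members described here, among 43280 symbols counted in each library. Kcnn4 lay just outside this floor, with 1 library at 10 counts or more and a highest count of 13. Kcng3 and Kcnk15 lay just inside it, each with 2 such libraries and highest counts of 10 and 11. The other 6 genes under the floor were Kcna10, Kcnj1, Kcnk7, Kcnk16, Kcnk18 and Kcnmb3.

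The 6 groups were control and OIR retina at postnatal day 14, 17 and 30 (P14, P17 and P30), with 2 libraries in each group at P14 and 3 in each of the others. OIR mice were kept in 75% oxygen from P7 to P12 and then in 21% oxygen, while control mice stayed at 21%. All were unedited mice of 1 strain, and the labels do not say whether a library comes from 1 mouse or a pool, so p-values measure the spread between these libraries, which may be technical. OIR is a model in which high oxygen prunes growing retinal vessels, and back in room air the inner retina lacks oxygen until vessels regrow, first with tufts that later regress.

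Potassium channels set the resting potential of retinal neurons and glia and end their electrical responses. Voltage-gated channels are built of 4 pore-forming subunits, often with silent modifier subunits and with cytoplasmic or single-pass auxiliary subunits, whereas inward rectifiers (Kcnj) and tandem-pore leak channels (Kcnk) are open near the resting potential. In photoreceptors, channels that hold the modifier Kcnv2 carry a current that shapes the response to light, and loss of human KCNV2 causes a cone dystrophy. Bipolar, amacrine and ganglion cells use Kcna, Kcnc and Kcnd channels and the G-protein-gated inward rectifiers to time their firing.

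Each library held between 26077663 and 41716971 counted reads, of which the 85 genes took 0.339 to 0.477%. Retinal markers were present in all groups, with the rod list summing to 40200 to 123000 CPM (counts scaled to library size). Lens genes took 8.60%, 6.30% and 0.388% of counts in the 3 OIR libraries at P17, 0.042 to 0.657% in the P17 controls, up to 0.189% at P14 and 3.66 to 9.16% at P30. All 3 OIR libraries at P17 had Xist at 114 to 158 CPM with Y-linked genes at 0.143 CPM or less, while the P17 controls had Y-linked genes at 66.2 to 86.6 CPM, so treatment and sex chromosome RNA cannot be told apart at P17. Control P14 replicate 2 and OIR P30 replicate 2 also carried Xist. In whole retina, fewer cells of a type and less RNA per cell cannot be told apart.

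Promoters of some members that rose or fell at P17 are shown first, since members of both directions come back in the results. They are printed 5′ to 3′ and are the 250 bases before a start in RefSeq (GRCm38.p6). RefSeq had an entry for 60 of the 85 members, with 85 promoters in all. Windows that overlap an annotated exon were not printed. The window of Kcne3 lies inside its GENCODE gene (chr7:100176502-100184869), so it does not precede the GENCODE start of that gene. Capitals mark the letters TAATCC, the core bound by photoreceptor homeobox factors, and ACGTG or GCGTG, the core of hypoxia response elements, on either strand. Kcne3, Kcnmb1 and Kcnj15 rose, and Kcnd2, Kcnip2 and Kcnj9 fell. The windows are chr7:100178433-100178682 (plus strand), chr11:33962763-33963012 (plus), chr16:95257308-95257557 (plus), chr6:21215096-21215345 (plus), chr19:45816064-45816313 (minus) and chr1:172329323-172329572 (minus).
Kcne3: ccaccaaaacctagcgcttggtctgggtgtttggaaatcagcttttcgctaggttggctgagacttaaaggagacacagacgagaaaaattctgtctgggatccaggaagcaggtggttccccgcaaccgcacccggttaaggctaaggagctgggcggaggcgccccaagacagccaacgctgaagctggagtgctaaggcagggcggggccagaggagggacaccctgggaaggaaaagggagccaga
Kcnmb1: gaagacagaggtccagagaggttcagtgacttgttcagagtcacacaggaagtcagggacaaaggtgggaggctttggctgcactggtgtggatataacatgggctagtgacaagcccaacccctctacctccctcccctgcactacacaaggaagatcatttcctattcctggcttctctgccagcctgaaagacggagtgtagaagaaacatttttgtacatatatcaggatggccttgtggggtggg
Kcnj15: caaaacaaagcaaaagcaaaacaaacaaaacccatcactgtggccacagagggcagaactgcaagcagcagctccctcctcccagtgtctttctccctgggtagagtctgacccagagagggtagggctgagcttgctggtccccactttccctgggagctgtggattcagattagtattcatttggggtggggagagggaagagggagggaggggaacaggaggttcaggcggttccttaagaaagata
Kcnd2: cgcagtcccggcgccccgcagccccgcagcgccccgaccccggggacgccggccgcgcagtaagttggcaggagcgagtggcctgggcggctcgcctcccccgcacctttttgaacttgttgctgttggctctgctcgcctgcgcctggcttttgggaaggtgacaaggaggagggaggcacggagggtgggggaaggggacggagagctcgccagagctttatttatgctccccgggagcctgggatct
Kcnip2: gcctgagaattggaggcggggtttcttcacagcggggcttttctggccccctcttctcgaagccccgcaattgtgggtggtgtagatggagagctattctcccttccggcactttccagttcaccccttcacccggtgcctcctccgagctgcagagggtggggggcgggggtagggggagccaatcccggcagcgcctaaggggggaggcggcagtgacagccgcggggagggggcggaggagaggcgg
Kcnj9: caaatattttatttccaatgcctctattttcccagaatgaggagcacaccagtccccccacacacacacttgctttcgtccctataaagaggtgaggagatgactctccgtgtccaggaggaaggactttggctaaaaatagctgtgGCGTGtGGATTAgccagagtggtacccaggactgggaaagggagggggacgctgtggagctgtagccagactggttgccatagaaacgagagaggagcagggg
The window of Kcnj9 holds GCGTG starting 103 bases and the reverse complement of TAATCC starting 97 bases before the start, and the other 5 windows hold none of these letters. TAATCC is in 6.25% of 32851 promoters of this length and in 2 of the 85 member promoters. Either hypoxia core is in 38.6% of all promoters and in 34.1% of those of members (29 of 85). These matches describe letters and not binding sites.

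Levels between genes were compared per length, as TMM-scaled CPM per kilobase of exon. A few genes took a large share of the signal. The inward rectifier Kcnj14, the modifier Kcnv2 and the auxiliary subunit Kcnab2 led, and together they held 32.9% of the summed level of all 85 in control retina at P14, 43.7% in control at P17 and 48.1% in control at P30. In OIR their share was 37.2%, 47.3% and 50.3% at the same ages. Of the 85 genes, 21 reached 10 CPM per kilobase in some group and 31 stayed under 1 in every group.

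Kcnj14 stood at 52.5 ± 0.505 CPM per kilobase (SD, n = 2) in control P14, 156 ± 19.4 (n = 3) in control P17 and 284 ± 13.8 (n = 3) in control P30. Kcnv2 stood at 112 ± 5.85, 131 ± 10.1 and 119 ± 5.62 in the same groups. So Kcnv2 was the highest gene at P14 and Kcnj14 at P17 and P30. After these came Kcnab2, at 47.4 ± 0.0963, 79.3 ± 17.0 and 118 ± 2.67, which at P30 did not differ from Kcnv2 beyond their spread. Kcne2, an auxiliary subunit known for pairing with Kcnq and Kcnh channels, stood at 31.4 ± 1.60, 43.3 ± 3.05 and 36.9 ± 3.36. Kcna5, Kcnh2, Kcnj9 and Kcnk1 were also among the members with a high mean level.

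The makeup by class shifted with age. Inward rectifiers held 13.9% of the summed per-length level in control P14, 24.1% in control P17 and 32.2% in control P30, and the libraries of consecutive ages did not overlap. Kcnj14 made up 52.5, 156 and 284 CPM per kilobase of the class sums of 89.3, 201 and 349, and the other 11 inward rectifiers held 5.7%, 5.43% and 5.98%. Pore-forming Kcna to Kcnd subunits held 25.7%, 19.7% and 21.2%, and the modifiers Kcnf, Kcng, Kcns and Kcnv held 20.4%, 18.6% and 12.8%. The Kcnh and Kcnq channels held 9.40%, 6.17% and 6.19%, tandem-pore channels 5.03%, 4.38% and 3.86%, and the calcium- or sodium-activated channels (Kcnma, Kcnn, Kcnt, Kcnu) 2.37%, 1.32% and 1.06%. Auxiliary subunits held 23.3%, 25.8% and 22.6%. A smaller share did not always mean a smaller sum. From P14 to P30 the Kcna to Kcnd sum went from 165 to 230 CPM per kilobase, the Kcnh and Kcnq sum from 60.5 to 67.1 and the tandem-pore sum from 32.4 to 41.8. The sum of the calcium- or sodium-activated channels went down, from 15.3 to 11.5.

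**Figure D1:**
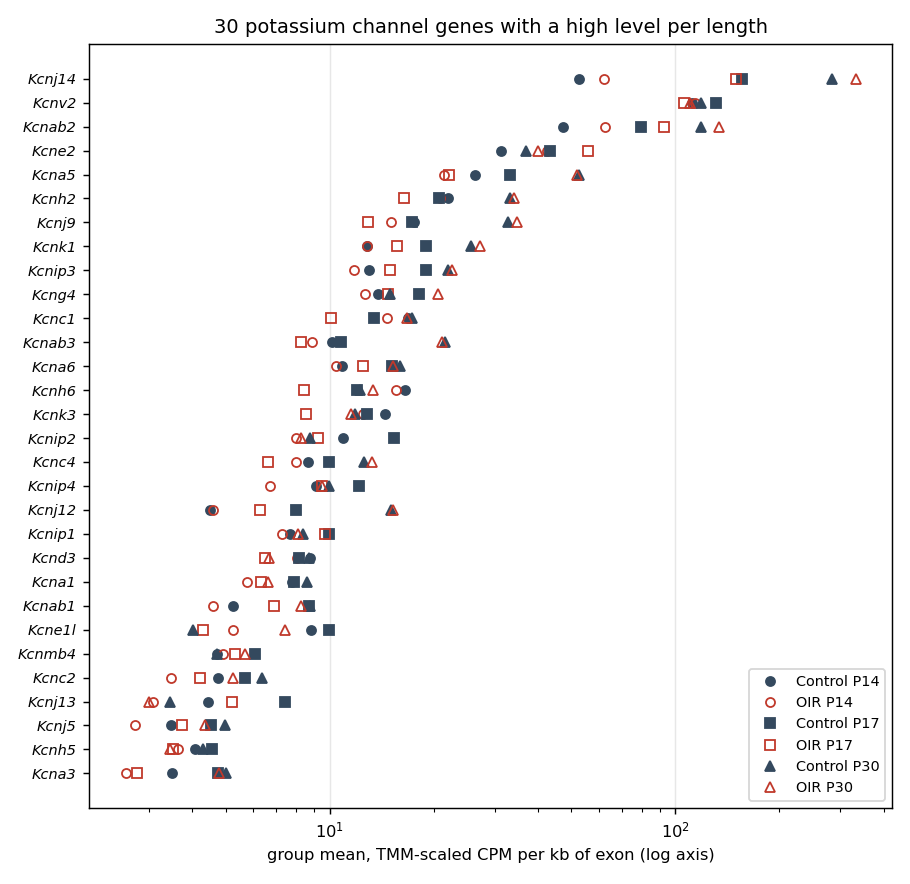
Group means of 30 genes with a high level, in TMM-scaled CPM per kilobase of exon on a log axis. Filled symbols are control and open symbols OIR at P14 (circles), P17 (squares) and P30 (triangles). Kcnj14 runs from 52.5 in control P14 to 333 in OIR P30, while Kcnv2 stays between 106 and 131.

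The first comparison asked what differed in OIR at P14, during the hypoxic phase. In edgeR's quasi-likelihood test, with p-values adjusted after Benjamini and Hochberg across 19905 genes, Kcng2 and Kcne3 rose, 2 of the 85 members or 2.35%, against 0.723% of all genes tested (0.819% were called in either direction). No member was called lower by edgeR (0.0955% of all genes were) or limma-voom, and 1 was by DESeq2. At an unadjusted p under 0.05 in edgeR, 17 members were lower and 7 higher, a share not counted over all genes. The median log2 fold change of the members was -0.13, against -0.014 for all genes. By class the medians ran from -0.27 for the tandem-pore channels and -0.25 for Kcna to Kcnd and for the inward rectifiers to 0.04 for the modifiers.

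Kcne3, a single-pass subunit that in epithelia holds Kcnq1 channels open, stood at 1.33 and 0.793 CPM in OIR and 0.104 and 0.152 CPM in control (log2 fold change 3.00 ± 0.68 (SE), adjusted p = 0.0439). These values rest on 68 and 10 reads summed over the groups, a ratio of 8.09 with a 95% exact counting interval of 4.14 to 17.6. Kcng2, a silent modifier subunit, stood at 2.96 and 2.75 CPM in OIR and 1.67 and 1.04 CPM in control (log2 fold change 1.07 ± 0.24 (SE), adjusted p = 0.0448). In both genes every OIR library lay above both controls. The call of Kcne3 ended without control P14 replicate 1 or 2, OIR P14 replicate 1 or any of 5 libraries of other ages (adjusted p up to 0.401). The call of Kcng2 ended in 12 of 16 single omissions (adjusted p up to 0.369), control P14 replicate 2 and both OIR P14 libraries among them, and it ended in the fit of only the groups compared (0.138). Both calls ended with the Y-linked genes as a covariate (adjusted p = 0.247 for Kcne3 and 0.159 for Kcng2), with the lens genes as a covariate (0.151 and 0.0776) and without the 2 OIR P17 libraries with the most lens RNA (0.088 and 0.0556).

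Neuronal channels stood lower at P14 without being called. Kcnd2 had a log2 fold change of -0.45 (95% interval -0.77 to -0.14, adjusted p = 0.195), Kcnc2 of -0.45 (95% interval -0.76 to -0.14, adjusted p = 0.187) and Kcna1 of -0.43 (95% interval -0.78 to -0.08, adjusted p = 0.318). For the photoreceptor modifier Kcnv2 the interval lay close around 0, at 0.03 (95% interval -0.23 to 0.29, adjusted p = 0.984). Kcne2 stood at 72.1 and 77.8 CPM in OIR against 57.5 and 53.5 in control, which did not pass the test (adjusted p = 0.142).

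At P17, the age usually taken as the peak of vessel tufts, the potassium channel genes that were called were mostly lower in OIR. Of the 85 members 30 fell, or 35.3%, against 6.76% of all genes tested, and 5 rose, or 5.88%, against 7.81%, which makes 35 calls or 41.2% against 14.6%. The members' median log2 fold change was -0.304, against 0 for all genes. The falls were moderate, with a median of -0.50 among the 30 that were called, and each of the 7 classes held at least 1 of them. Of the pore-forming Kcna to Kcnd subunits 11 of 16 fell, 4 of 7 Kcna genes among them. Of the inward rectifiers 4 of 12 fell, all of them G-protein-gated subunits, and 4 of 11 tandem-pore channels fell.

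Among the subunits of A-type currents, which open briefly below the firing threshold, Kcnd2 stood at 11.7, 13.8 and 10.96 CPM in OIR and 22.2, 22.5 and 19.97 CPM in control (log2 fold change -0.82 ± 0.12 (SE), adjusted p = 0.000133). Every OIR library lay below every control. Its calcium-binding partner Kcnip2 stood at 30.3, 32.7 and 33.5 CPM in OIR and 48.4, 59.9 and 52.03 CPM in control (log2 fold change -0.73 ± 0.11 (SE), adjusted p = 0.000264), again with no overlap. Kcnip3 fell less, from 63.7, 71.96 and 66.7 CPM to 48.4, 53.3 and 57.1 CPM (log2 fold change -0.35 ± 0.08 (SE), adjusted p = 0.00758). Kcna4, a further A-type subunit, fell with a log2 fold change of -0.59 ± 0.12 (SE, adjusted p = 0.0028), and Kcnd3 with -0.33 ± 0.10 (SE, adjusted p = 0.0338).

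Delayed rectifiers were also among the falls. Kcna3, a delayed rectifier also used by microglia and lymphocytes, stood at 5.21, 5.54 and 5.01 CPM in OIR and 8.57, 8.30 and 10.2 CPM in control (log2 fold change -0.78 ± 0.17 (SE), adjusted p = 0.00447). Kcnb2 stood at 6.84, 6.00 and 6.68 CPM in OIR and 9.71, 10.5 and 10.1 CPM in control (log2 fold change -0.63 ± 0.14 (SE), adjusted p = 0.00518). The groups did not overlap for either gene. Kcna5 had a log2 fold change of -0.58 ± 0.12 (SE, adjusted p = 0.00287) and Kcna2 of -0.51 ± 0.15 (SE, adjusted p = 0.03), while Kcna1 did not pass the test (-0.32 (95% interval -0.61 to -0.03, adjusted p = 0.11)).

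Kcnc genes encode fast channels that let neurons fire at high rates. Kcnc4 stood at 24.3, 24.2 and 24.3 CPM in OIR and 32.8, 37.1 and 39.7 CPM in control (log2 fold change -0.59 ± 0.12 (SE), adjusted p = 0.00266). Every OIR library lay below every control. Kcnc1 and Kcnc2 fell with log2 fold changes of -0.41 ± 0.11 (SE, adjusted p = 0.0177) and -0.43 ± 0.11 (SE, adjusted p = 0.0146).

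Among the tandem-pore leak channels, Kcnk9 had the largest fall of all members called. It stood at 2.83, 2.42 and 2.48 CPM in OIR and 8.78, 6.93 and 9 CPM in control (log2 fold change -1.68 ± 0.20 (SE), adjusted p = 3.68e-05). Its acid-sensitive relative Kcnk3 stood at 32.5, 33.8 and 35.2 CPM in OIR and 44.9, 62.2 and 46.04 CPM in control (log2 fold change -0.59 ± 0.11 (SE), adjusted p = 0.00128). In both genes the groups were apart. The mechanically gated Kcnk2, with 12.2% of its exon bases shared with another gene, fell with a log2 fold change of -0.65 ± 0.13 (SE, adjusted p = 0.00299) and Kcnk1 with -0.28 ± 0.08 (SE, adjusted p = 0.0254). Kcnk5 was low, at 0.686, 0.370 and 0.474 CPM in OIR and 0.129, 0.315 and 0.277 CPM in control, and did not pass the test (1.08 (95% interval -0.19 to 2.36, adjusted p = 0.245)).

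The G-protein-gated inward rectifiers open when transmitter receptors release G-protein subunits, and all 4 of them fell. Kcnj9 stood at 51.6, 58.6 and 55.5 CPM in OIR and 79.99, 66.6 and 76.5 CPM in control (log2 fold change -0.43 ± 0.09 (SE), adjusted p = 0.00306), with every OIR library lower. Its promoter is shown above. Kcnj3, Kcnj6 and Kcnj5 had log2 fold changes of -0.49 ± 0.12 (SE, adjusted p = 0.0088), -0.49 ± 0.16 (SE, adjusted p = 0.0485) and -0.28 ± 0.09 (SE, adjusted p = 0.0478), and 31.1% of the exon bases of Kcnj3 overlap another gene, where reads cannot be assigned without a known strand setting. The most abundant inward rectifier, Kcnj14, did not pass the test, with 369, 429.9 and 418 CPM in OIR and 399, 485 and 389 CPM in control, overlapping groups and a log2 fold change of -0.06 (95% interval -0.33 to 0.20, adjusted p = 0.793). Kcnj2 was at -0.02 (95% interval -0.42 to 0.39, adjusted p = 0.973), and Kcnj13, known from the pigment epithelium, at -0.50 (95% interval -0.90 to -0.10, adjusted p = 0.0722), with 49.1% of its exon bases shared with Gigyf2.

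The photoreceptor modifier Kcnv2 stood at 591, 531 and 498 CPM in OIR and 619, 723 and 665 CPM in control (log2 fold change -0.31 ± 0.10 (SE), adjusted p = 0.0366). All OIR libraries lay below all controls. The call of Kcnv2 ended in 6 of 16 single omissions (adjusted p up to 0.161), those of control P17 replicates 2 and 3 and OIR P17 replicates 2 and 3 among them. The rod list had a median log2 fold change of -0.02 and summed to 57400 to 59200 CPM in OIR, inside the control range of 50200 to 71600. The cone list had a median of 0.19, with 2 of 8 markers called higher, and summed to 1300 to 1540 CPM in OIR against 1090 to 1300 in control. The part of photoreceptor content in the fall of Kcnv2 was not tested.

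Of the remaining voltage-gated classes, Kcnh7, Kcnh6 and Kcnh2, which belong to the ether-a-go-go family, fell with log2 fold changes of -0.63 ± 0.17 (SE, adjusted p = 0.0148), -0.51 ± 0.10 (SE, adjusted p = 0.00283) and -0.34 ± 0.07 (SE, adjusted p = 0.00467). Kcnh1 of the same family was at -0.01 (95% interval -0.41 to 0.38, adjusted p = 0.978). Among the modifiers Kcng1 fell beside Kcnv2, by -0.53 ± 0.16 (SE, adjusted p = 0.0361). Kcnma1, the large-conductance calcium-activated channel, was the one gene of the 7 in its class to fall (-0.45 ± 0.14 (SE, adjusted p = 0.0348)). The cytoplasmic subunits Kcnab1 and Kcnab3 fell with -0.33 ± 0.09 (SE, adjusted p = 0.0142) and -0.38 ± 0.10 (SE, adjusted p = 0.0133), whereas Kcnab2 was at 0.23 (95% interval -0.07 to 0.52, adjusted p = 0.295).

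The X-linked single-pass subunit Kcne1l went the opposite way from its relatives Kcne2 and Kcne3. It stood at 6.61, 7.16 and 6.20 CPM in OIR and 13.1, 20.2 and 12.9 CPM in control (log2 fold change -1.21 ± 0.18 (SE), adjusted p = 0.000189), and no libraries overlapped. With the Y-linked genes as a covariate its adjusted p was 0.0714. In control P14, the library with Xist had 14.1 CPM and the one without 13.2 CPM, and in OIR P30 the library with Xist had 9.23 CPM against 10.8 and 14.3 CPM.

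**Figure D2:**
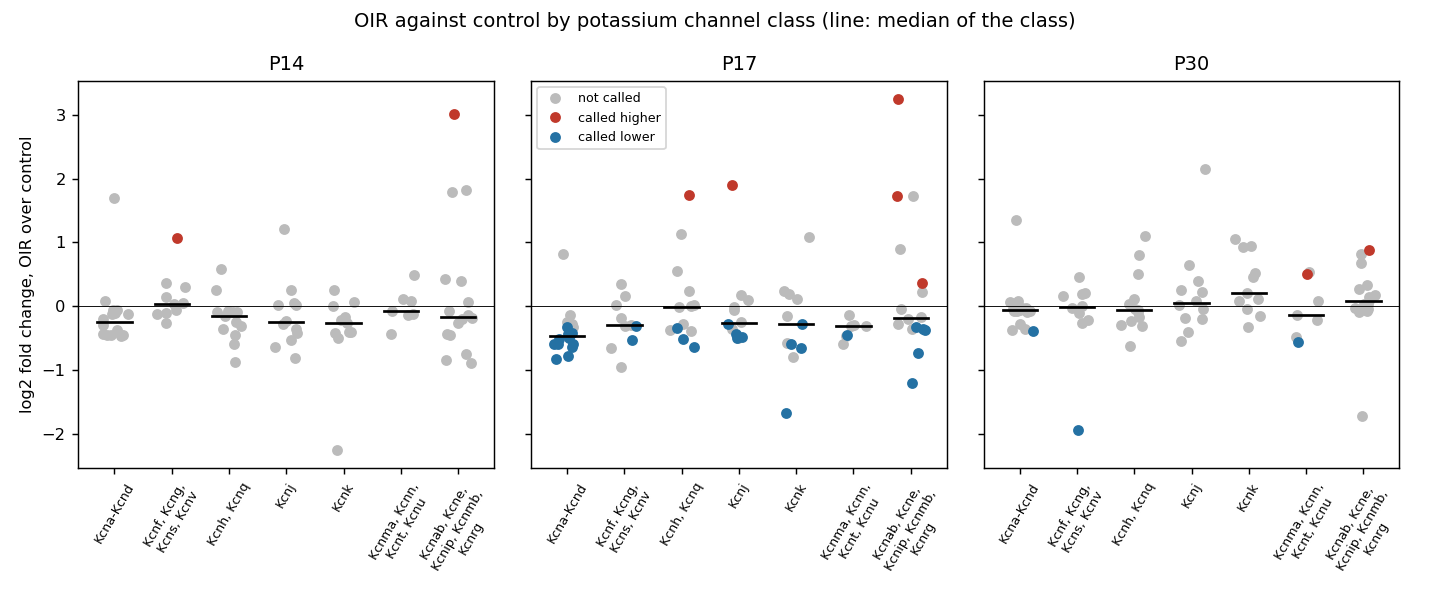
Log2 fold change of OIR over control for each of the 85 genes (points) at P14, P17 and P30, by channel class, with the class median as a line. Red points were called higher and blue points lower at an adjusted p under 0.05: 2 and 0 at P14, 5 and 30 at P17, and 2 and 3 at P30.

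The 5 members that rose at P17 were low in control retina, apart from Kcne2. Kcne3 stood at 1.37, 1.04 and 0.722 CPM in OIR and 0.181, 0.0859 and 0.0346 CPM in control (log2 fold change 3.25 ± 0.58 (SE), adjusted p = 0.000982), which is 125 against 11 reads and a ratio of 9.50 with a counting interval of 5.13 to 19.5. Kcnq1, its channel partner in epithelia, stood at 5.15, 2.86 and 4.15 CPM in OIR and 0.852, 1.86 and 0.900 CPM in control (log2 fold change 1.74 ± 0.32 (SE), adjusted p = 0.00135). In both genes the 3 OIR libraries were the highest. Kcnmb1, the subunit that raises the calcium sensitivity of Kcnma1 channels in vascular smooth muscle, stood at 1.37, 1.57 and 1.78 CPM in OIR and 0.465, 0.601 and 0.346 CPM in control (log2 fold change 1.73 ± 0.34 (SE), adjusted p = 0.00209), again without overlap.

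Kcnj15, an inward rectifier of epithelia, stood at 0.572, 0.624 and 0.496 CPM in OIR and 0.0516, 0.172 and 0.242 CPM in control (log2 fold change 1.89 ± 0.49 (SE), adjusted p = 0.0141). These are 69 and 15 reads, and without control P17 replicate 1 the adjusted p was 0.074. Kcne2 stood at 109, 84.5 and 102 CPM in OIR and 74.8, 82.6 and 72.3 CPM in control (log2 fold change 0.37 ± 0.10 (SE), adjusted p = 0.0179). Every OIR library was above every control in both genes. The call of Kcne2 ended without control P17 replicate 1 or 3 or OIR P17 replicate 1 or 3 (adjusted p up to 0.093). Kcne4, with 82, 51 and 54 reads in OIR and 19, 11 and 18 in control, did not pass the test (adjusted p = 0.0583) and is named here after its values were seen.

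**Figure D3:**
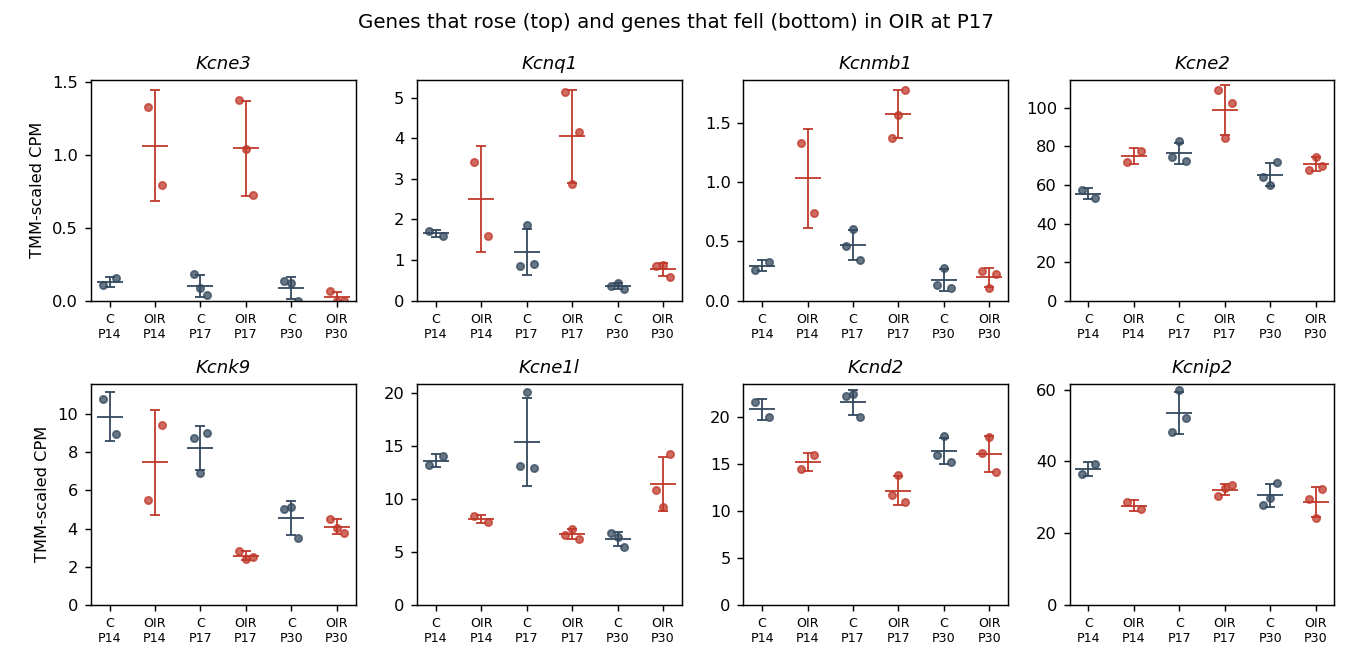
TMM-scaled CPM in each library (points) with the group mean and SD (lines) for 4 genes that rose and 4 that fell at P17, in control (C, dark) and OIR (red) at each age. At P17 the OIR points of Kcne3 lie at 0.722 to 1.37 CPM above controls of at most 0.181, and those of Kcnk9 at 2.42 to 2.83 below controls of at least 6.93.

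Markers of several cell types moved in the same libraries, in which 6.76% of all genes tested fell and 7.81% rose. At P17, 7 of 10 bipolar, 8 of 12 amacrine and horizontal and 5 of 10 ganglion cell markers fell, with list medians of -0.42, -0.42 and -0.43. In OIR the bipolar list summed to 1460 to 1510 CPM (control 1850 to 1950), the amacrine and horizontal list to 1260 to 1410 (control 1650 to 1870) and the ganglion list to 1480 to 1630 (control 2070 to 2370). In the other direction, 5 of 6 pericyte markers rose (302 to 422 CPM in OIR, 140 to 163 in control), as did 5 of 8 endothelial, 7 of 9 microglial and 5 of 7 reactive astrocyte markers. Of 8 Muller glia markers 3 fell and 1 rose, with a list median of 0.04. Of the photoreceptor markers 0 of 9 for rods were called and 2 of 8 for cones rose. Pigment epithelium had 1 of 9 lower and skeletal muscle 2 of 9 tested. Every marker of these lists was detected in both groups. The part of these cell types in the channel results was not tested.

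The P17 counts depended on which libraries were used. With the Y-linked genes as a covariate edgeR called 2 members lower (Kcnd2 and Kcnk9) and none higher. Calls over all genes went from 2900 to 229. Adjusted p was 0.148 to 0.52 for the 5 rises, and SE was a median of 1.56 times as large. All 30 falls and all 5 rises kept their sign, with a median of -0.48 for the 30. The falls had 0.47 to 1.26 times their log2 size, and 3 shrank by over 1.5 times, Kcnj6 to -0.23, Kcna5 to -0.38 and Kcnv2 to -0.20. At P17 this covariate goes with treatment, so its slope rests mainly on libraries of other ages. The kept signs therefore cannot tell treatment and sex chromosome RNA apart. Without the 2 OIR libraries with the most lens RNA, 1 OIR library is left at P17, and its spread is taken from the other groups. Calls were then fewer among members and over all genes. Every sign was kept (median -0.49 for the 30 falls), but Kcnip3 was at -0.23 and Kcng1 at -0.32. Of the 35 calls 19 were kept in every single omission. Besides Kcnv2, Kcnj15 and Kcne2, calls ended for Kcnj3 without OIR P17 replicate 3 (adjusted p = 0.0585) and for Kcnab1 and Kcnab3 without OIR P17 replicate 1 (0.0691 and 0.0595). Those of Kcnc1, Kcnc2, Kcnh7, Kcnk1, Kcng1, Kcna2, Kcnd3 and Kcnma1 each ended in 3 to 5 omissions of P17 libraries (adjusted p up to 0.144), and those of Kcnj5 and Kcnj6 in 12 of 16 omissions (up to 0.159 and 0.165). Without OIR P17 replicate 1 there were 19 lower calls, and without control P17 replicate 1 there were 3 higher calls.

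At P30, when the vessel tufts of the model have regressed, few members differed. Kcne1l and Kcnn1 rose, 2 of 85 or 2.35% (4.96% of all genes tested), and Kcnv1, Kcnma1 and Kcnd3 fell, 3 of 85 or 3.53% (3.63% of all), together 5 calls against a background of 8.60%. The members' median was -0.025, against 0.011 for all genes, and neither share of calls was above that of all genes. Kcne1l stood at 10.8, 9.23 and 14.3 CPM in OIR and 6.78, 6.43 and 5.44 CPM in control (log2 fold change 0.87 ± 0.18 (SE), adjusted p = 0.0109), with every OIR library higher. Kcnn1, a small-conductance calcium-activated channel, stood at 21.8, 19.8 and 23.1 CPM in OIR and 15, 15.2 and 15.4 CPM in control (log2 fold change 0.50 ± 0.14 (SE), adjusted p = 0.038), again with no overlap. Markers of microglia (6 of 9), reactive astrocytes (4 of 7), endothelium (3 of 8), bipolar cells (3 of 10) and ganglion cells (2 of 10) also rose at P30. Of the bipolar markers, though, 6 of 10 had a negative log2 fold change, and the list median was -0.09. The ganglion list summed to 1940 to 2360 CPM in OIR against 1700 to 1790 in control, and the Muller glia list, with 1 of 8 called higher, to 7220 to 7970 against 6430 to 6830, both without overlap. The bipolar and the amacrine and horizontal lists summed to 1670 to 1850 and 1710 to 1830 CPM in OIR against 1680 to 1790 and 1750 to 1810 in control. The part of these cell types in the channel results was not tested.

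Of the 3 falls at P30, Kcnma1 and Kcnd3 were also lower at P17. Kcnma1 stood at 37.3, 38.2 and 26.02 CPM in OIR and 50, 56.7 and 43.2 CPM in control (log2 fold change -0.56 ± 0.14 (SE), adjusted p = 0.0234). Kcnd3 stood at 66.5, 68.4 and 57.1 CPM in OIR and 85.03, 91.9 and 73.8 CPM in control (log2 fold change -0.38 ± 0.10 (SE), adjusted p = 0.028). In both genes all OIR libraries were lower, OIR replicate 3 the lowest. Kcnv1, a silent modifier, had 3, 7 and 2 reads in OIR and 14, 27 and 11 in control, without overlap (log2 fold change -1.94 ± 0.57 (SE), adjusted p = 0.0447). None of the 5 calls was kept in every single omission: Kcne1l lost it without control replicate 2 (adjusted p = 0.0505), Kcnma1 and Kcnd3 without control replicate 1 or 2 or OIR replicate 3 (up to 0.122 and 0.145), Kcnn1 in 6 omissions (up to 0.126) and Kcnv1 in 9 (up to 0.199). An edgeR fit of the P30 libraries alone called 0 members in either direction, and 70 of all 17798 genes it tested. In the fit of all libraries 16 members had an unadjusted p under 0.05, a share not counted over all genes.

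Of the 30 members that had fallen at P17, 27 were not called at P30, 2 were called lower (Kcnma1 and Kcnd3) and 1 higher (Kcne1l). Log2 fold changes of the 27 ran from -0.41 to 0.12, with a median of -0.04. Among the 27, Kcnj6 was at -0.41 (95% interval -0.77 to -0.04, adjusted p = 0.127), Kcna2 at -0.35 (95% interval -0.69 to -0.01, adjusted p = 0.153), Kcnc2 at -0.28 (95% interval -0.53 to -0.04, adjusted p = 0.114) and Kcnj5 at -0.19 (95% interval -0.39 to 0.01, adjusted p = 0.188). In these genes every OIR library lay below every control, whereas in Kcnh6 every OIR library lay above. How often groups lay apart in this way over all genes was not counted. Kcnd2 was at 16.2, 17.9 and 14.1 CPM in OIR and 15.99, 17.9 and 15.2 CPM in control, overlapping, with a log2 fold change of -0.03 (95% interval -0.28 to 0.23, adjusted p = 0.916). Kcnj9 was at 0.09 (95% interval -0.11 to 0.28, adjusted p = 0.572), Kcnk3 at -0.04 (95% interval -0.29 to 0.20, adjusted p = 0.841), Kcnk2 at 0.12 (95% interval -0.18 to 0.42, adjusted p = 0.607) and Kcnv2 at -0.11 (95% interval -0.32 to 0.10, adjusted p = 0.496). Kcne3 had 2 reads in OIR and 8 in control at P30, a ratio of 0.275 with a counting interval of 0.0284 to 1.38, and Kcnq1 was at 0.854, 0.874 and 0.590 CPM in OIR and 0.362, 0.429 and 0.292 CPM in control (adjusted p = 0.112), every OIR library above every control.

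The difference between the OIR effects at P17 and P30 was tested itself. The effect was higher at P30 in 14 members, 16.5% against 5.45% of all genes tested, and lower in 1, Kcne3 (1.18% against 3.84%), in all 17.6% against 9.29%. The 2 effects come from separate libraries at each age. Kcne1l turned from a log2 fold change of -1.21 to 0.87, a difference of 2.08 ± 0.25 (SE, adjusted p = 0.000225). Kcnk9 went from -1.68 to -0.15, a difference of 1.53 ± 0.28 (SE, adjusted p = 0.00393), and Kcnd2 from -0.82 to -0.03, a difference of 0.80 ± 0.16 (SE, adjusted p = 0.00665). The others included Kcnk12, Kcnk2, Kcnc4, Kcnip2, Kcnh6, Kcna5, Kcnk3, Kcnj9, Kcnip3 and Kcnh2, with differences of 0.38 to 1.04.

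Of the 15 differences 5 were kept in every single omission (Kcne1l, Kcnk9, Kcnd2, Kcnh6 and Kcnip2). The count of members with a higher effect at P30 was 9 without control P17 replicate 2, 8 without OIR P17 replicate 2, 6 without control P30 replicate 2 and 8 without control P30 replicate 3. The call of Kcne3 ended without control P30 replicate 1 or 2 (adjusted p up to 0.0917), its difference ran from -7.89 (without OIR P30 replicate 1) to -4.43 over the omissions, and without OIR P30 replicate 3 there were 2 members with a lower effect. With the Y-linked covariate 4 differences were called higher, while calls over all genes in either direction went from 1850 to 536. Without the 2 OIR P17 libraries with the most lens RNA, which leaves 1 there, calls were also fewer among members and over all genes. The difference between P14 and P17 was called in 0 of all genes by edgeR. DESeq2 called 1 member, with 170 of 19905 genes called in all, and limma-voom called 0. In edgeR 15 members had an unadjusted p under 0.05, a share not counted over all genes.

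**Figure D4:**
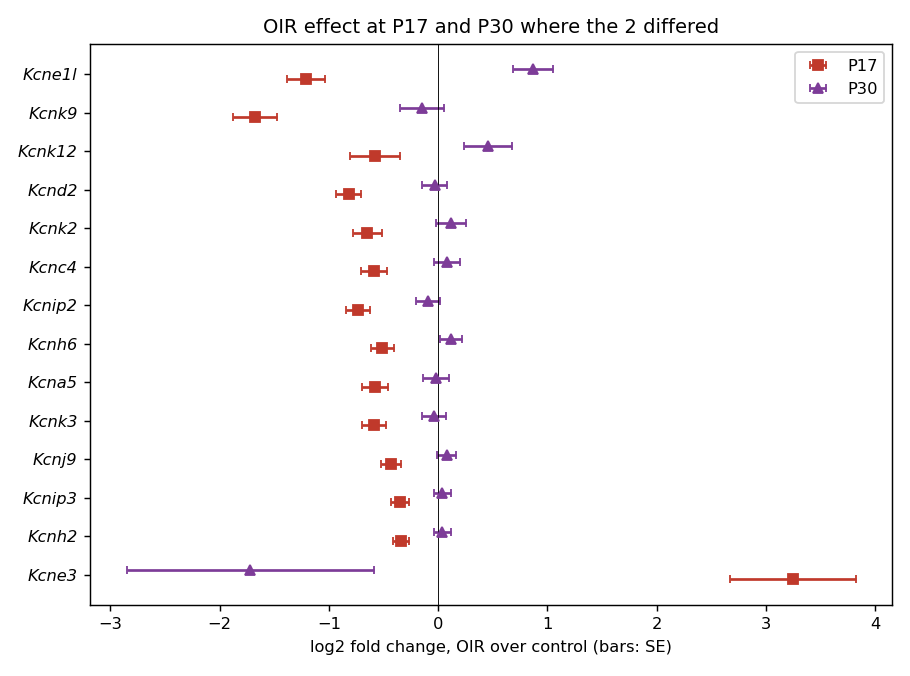
Log2 fold change of OIR over control with its SE at P17 (red squares) and P30 (purple triangles) for 14 genes in which the difference between the ages was called. Apart from Kcne3, whose P30 value rests on 10 reads in all, the P17 values lie between -1.68 and -0.34 and the P30 values between -0.15 and 0.87.

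Control retinas of different ages showed how the same genes change without OIR. From P14 to P17, 15 members rose, 17.6% against 18.3% of all genes tested, and 12 fell, 14.1% against 21.9%, in all 27 or 31.8% against 40.2%. Between P17 and P30, 14 rose, 16.5% against 14.9%, and 16 fell, 18.8% against 13.4%, in all 30 or 35.3% against 28.3%. Scaling by library totals instead of TMM moved the median of all genes by -0.114 and -0.23 on the log2 scale and gave 11 and 12 in the first step and 10 and 25 in the second, so directions are relative to the other genes. Controls at P17 enter both steps and the OIR comparison at P17, and P30 libraries held more lens RNA.

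Kcnj14 had the largest rise from P14 to P17. It stood at 144 and 142 CPM at P14 and 399, 485 and 389 CPM at P17 (log2 fold change 1.57 ± 0.14 (SE), adjusted p = 3.88e-07), and at 807, 776 and 732 CPM at P30 (log2 fold change 0.86 ± 0.12 (SE), adjusted p = 5.55e-05). The 3 ages did not overlap. Kcnj12, an inward rectifier of the same branch, rose in both steps, by 0.82 ± 0.18 (SE, adjusted p = 0.00191) and 0.91 ± 0.16 (SE, adjusted p = 0.000476), and with the lens genes as a covariate its steps were 0.53 and 0.35, the second not called (adjusted p = 0.109). Kcnab2 rose by 0.74 ± 0.15 (SE, adjusted p = 0.000882) and 0.58 ± 0.13 (SE, adjusted p = 0.00342), the second with an adjusted p of 0.0516 with the lens covariate.

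Of 16 auxiliary subunits 8 rose in the first step, among them all 4 Kcnip genes, and 8 were not called. Over all genes tested 18.3% rose in this step, and over all 85 members 17.6%. Kcnab1 rose by 0.72 ± 0.10 (SE, adjusted p = 2.23e-05) and Kcnip3 by 0.55 ± 0.09 (SE, adjusted p = 0.000183). Kcnk1 rose by 0.57 ± 0.09 (SE, adjusted p = 0.000111) and Kcna6, which shares 39.6% of its exon bases with another gene, by 0.49 ± 0.11 (SE, adjusted p = 0.00162). Kcnip2 rose by 0.49 ± 0.12 (SE, adjusted p = 0.00434) and Kcne2 by 0.46 ± 0.11 (SE, adjusted p = 0.00334), calls that ended without control P14 replicate 1 and replicate 2 (adjusted p = 0.0517 and 0.0505). Kcnj13 rose by 0.73 ± 0.21 (SE, adjusted p = 0.00888) and fell by P30 to 4.05, 4.23 and 4.86 CPM from 9.30, 8.91 and 10.04 CPM (log2 fold change -1.10 ± 0.19 (SE), adjusted p = 0.000316), and the rise was not called without control P14 replicate 2 (adjusted p = 0.0714). Without that replicate 8 members rose.

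Falls from P14 to P17 included Kcnd1, a gene on the X chromosome, which stood at 20.1 and 31.1 CPM at P14 and 9.40, 10.1 and 10.3 CPM at P17 (log2 fold change -1.37 ± 0.17 (SE), adjusted p = 1.02e-05). The higher of the 2 P14 values is that of the library with Xist. The groups were apart. Of the 7 sodium- and calcium-activated channels 4 fell and 3 were not called, where 21.9% of all genes tested and 14.1% of all members fell. Kcnt1 fell by -0.86 ± 0.12 (SE, adjusted p = 2.3e-05) and Kcnn2 by -0.85 ± 0.17 (SE, adjusted p = 0.000688). Kcnh6 changed by -0.46 ± 0.11 (SE, adjusted p = 0.0036). Kcnt2 and Kcnq3 fell too, calls that each ended in 4 of the single omissions, both P14 controls among them (adjusted p up to 0.118 and 0.235). Further calls were rises of 0.37 to 0.42 for Kcnip1, Kcnip4, Kcnj5, Kcns2 and Kcnmb4 and falls of -0.45 to -0.33 for Kcnma1, Kcnc1 and Kcnj6, each lost in 1 to 10 single omissions; Kcnmb4 was at 0.23 without control P17 replicate 2 and Kcnj6 at -0.26 without control P14 replicate 1. Without control P17 replicate 1, 7 members fell.

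From P17 to P30 the G-protein-gated Kcnj9 and the cytoplasmic subunit Kcnab3 rose, while the abundant Kcnv2 was not called. Kcnv2 stood at 619, 723 and 665 CPM and 639, 588 and 589.7 CPM, which overlapped and did not pass the test (-0.14 (95% interval -0.36 to 0.07, adjusted p = 0.284)). Kcnj9 stood at 79.99, 66.6 and 76.5 CPM at P17 and 147, 135 and 141 CPM at P30 (log2 fold change 0.92 ± 0.09 (SE), adjusted p = 1.78e-06). Kcnab3 stood at 30.6, 31.2 and 30.6 CPM at P17 and 59.1, 61.3 and 64.95 CPM at P30 (log2 fold change 1.00 ± 0.10 (SE), adjusted p = 1.78e-06). In both, all 3 P30 libraries were the highest. Kcnh2 rose by 0.68 ± 0.07 (SE, adjusted p = 5.46e-06), Kcna5 by 0.67 ± 0.12 (SE, adjusted p = 0.000506) and Kcnj11, the pore of ATP-sensitive channels, by 0.81 ± 0.16 (SE, adjusted p = 0.00124). With library totals Kcnh2 rose by 0.45, Kcna5 by 0.44 and Kcnab2 by 0.36. The lens covariate ended the call of Kcnj11 (adjusted p = 0.0832). Kcnk1, Kcnc1 and Kcnc4 rose by 0.34 to 0.43, and none of these 3 was called with library totals, which left adjusted p of 0.0805 to 0.487.

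Kcng1 fell to P30 from 6.15, 7.02 and 5.78 CPM to 1.48, 1.32 and 1.68 CPM (log2 fold change -2.08 ± 0.18 (SE), adjusted p = 8.44e-07). Kcne1l changed by -1.31 ± 0.18 (SE, adjusted p = 4.86e-05), Kcnip2 by -0.81 ± 0.11 (SE, adjusted p = 5.24e-05) and Kcnk9 by -0.85 ± 0.20 (SE, adjusted p = 0.00348). Of the 5 genes that rose in OIR at P17, 3 fell between these control ages, where 13.4% of all genes tested fell. Kcnq1 changed by -1.72 ± 0.40 (SE, adjusted p = 0.00394) and Kcnmb1 by -1.42 ± 0.44 (SE, adjusted p = 0.0221), the latter not called without control P17 replicate 2 or control P30 replicate 1 or 3 (adjusted p up to 0.0862). Kcnj15 had 2 reads at P30 and 15 at P17, a ratio of 0.151 with a counting interval of 0.0168 to 0.65, and its call ended in 5 omissions (up to 0.109). Vascular and pigment epithelium markers moved between the same controls: 7 of 8 endothelial and 4 of 9 pigment epithelium markers fell from P17 to P30. The endothelial list summed to 326 to 376 CPM at P17 and 194 to 225 at P30. The pigment epithelium list summed to 635 to 742 CPM at P17 and 242 to 490 at P30. From P14 to P17, 3 of the 9 pigment epithelium markers had risen, where 18.3% of all genes tested rose. In that step 5 of 9 had a negative log2 fold change and 4 a positive one, with a list median of -0.13. The list sums of the P14 controls lay on both sides of the P17 range. The part of these cells in the changes of the channel genes, that of Kcnj13 included, was not tested. Kcnt2 changed by -1.27 ± 0.27 (SE, adjusted p = 0.00217). Kcnd2, Kcnk2, Kcnh7, Kcnmb4, Kcns2, Kcnip1 and Kcnq3 had called log2 changes of -0.51 to -0.25, each lost in 3 to 11 of the 16 single omissions, with Kcnmb4 at -0.22 and Kcnip1 at -0.15 without control P17 replicate 2. Without control P17 replicate 2, control P30 replicate 1 or control P30 replicate 3, 9 members fell in place of 16.

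**Figure D5:**
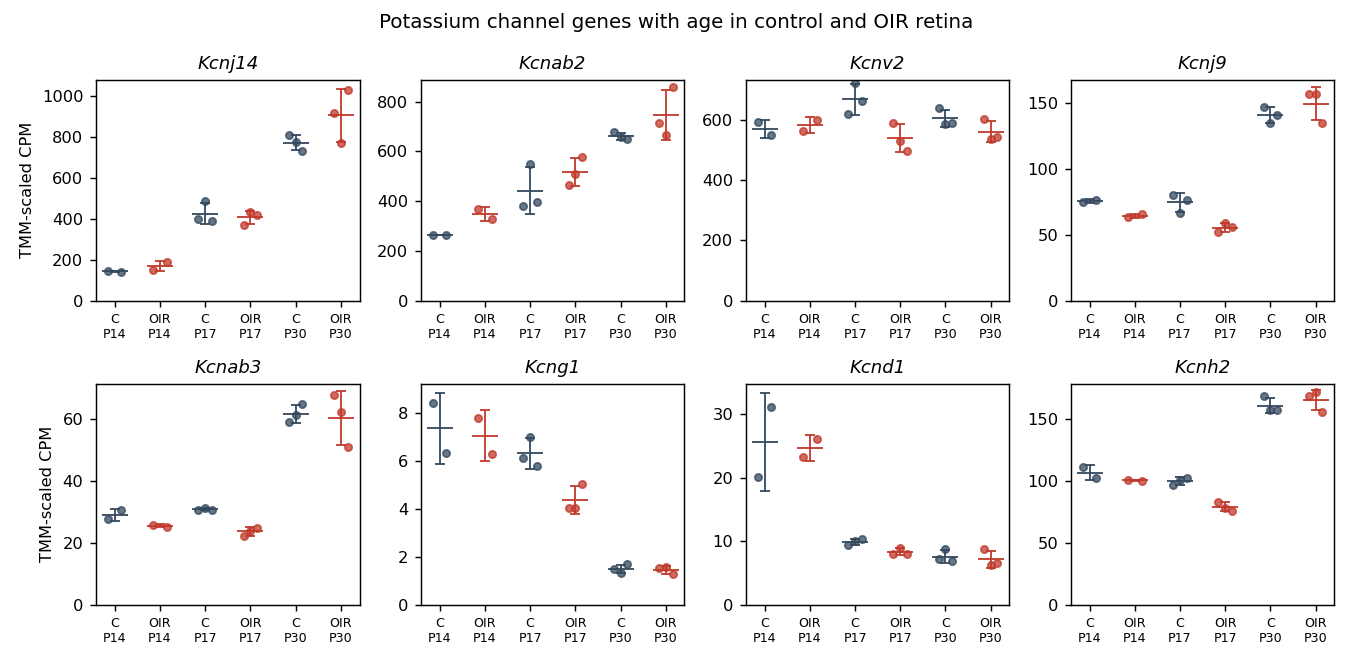
TMM-scaled CPM in each library (points) with the group mean and SD (lines) for 8 genes at P14, P17 and P30 in control (C, dark) and OIR (red). Kcnj14 rises in control from 142 to 144 CPM at P14 to 732 to 807 CPM at P30, and Kcng1 falls from 5.78 to 7.02 CPM at P17 to 1.32 to 1.68 CPM at P30.

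Genes of potassium handling outside the Kcn names were counted from lists chosen with these data known. Over all genes tested at P17, 6.76% fell and 7.81% rose. Of 8 tested partner subunits 3 fell at P17, Dpp6, a partner of Kcnd channels (log2 fold change -0.46), Lrrc55 (-0.58) and Cntnap2 (-0.29). Of the 4 Hcn genes, whose channels carry both sodium and potassium, Hcn4 (-0.63) and Hcn3 (-0.37) fell. Of 11 sodium pump genes 2 fell, the regulator Fxyd7 (-0.52) among them, and 1 rose, Fxyd1 (0.92). Of 5 cation-chloride cotransporters that carry potassium the neuronal Slc12a5 fell (-0.53) and Slc12a4 rose (0.68). The medians of the partner, Hcn, sodium pump and cotransporter lists were -0.26, -0.31, 0.13 and 0.08. At P30 Fxyd7 (0.38) and Fxyd1 (0.52) of the 11 sodium pump genes rose, where 4.96% of all genes did.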

How the data were processed

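Whole-retina RNA of 16 libraries in 6 groups was analysed. Per the labels' protocols, RNA was isolated with RNeasy, mRNA selected with Dynabeads, and Ion Total RNA-seq Kit v2 libraries sequenced on an Ion Proton. Per the labels' protocols and the submitters' processing notes, the authors used Torrent Suite 5.4.0 with STAR on mm10 and Bowtie2 for unmapped reads, and counted with HTSeq; the deposited values are raw read counts per gene symbol. Aligner versions, annotation and strand setting are not given in the sources here, so reads of overlapping genes may be shared. Counts were filtered with filterByExpr (minimum count 10, minimum total 15), scaled by TMM and fitted in edgeR 4.0.16 (R 4.3.3) by a robust quasi-likelihood model over all libraries (10 residual degrees of freedom). A gene was called at a Benjamini-Hochberg adjusted p under 0.05 over all 19905 genes, and rose and fell are used for calls only. SE was taken as |log2 fold change| divided by the root of the F statistic. Gene lengths came from GENCODE annotation of GRCm38. Reads carry no molecular identifiers, so intervals from counts reflect counting error alone.

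The members and lists were chosen with earlier results of these data known. The text names, per OIR comparison, up to 12 rises and 12 falls, up to 10 of each between control ages, up to 8 of each for differences, and a fixed set of 20 genes. Other members named to account for every call were chosen after their values were seen. Some genes enter the counts but are not reported here. Steps were tested on simulated data. Alternatives were RLE and library-total scaling, DESeq2 1.42.0, limma-voom (limma 3.58.1), no filter, a filter of 50 counts in 2 libraries, a replicate block, only the groups compared, lens and Y-linked covariates (log2 of CPM plus 0.1), and leaving out libraries.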

Additional observations from a re-analysis of the deposited data

Results flagged for a closer look

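The OIR effect differed between P17 and P30 in 15 members by the test of the difference itself (edgeR quasi-likelihood, adjusted p under 0.05), and these are the results to look at again. Values are log2 differences, the P30 effect minus the P17 effect. Among the positive differences it was 2.08 for Kcne1l, 1.53 for Kcnk9, 1.04 for Kcnk12, 0.80 for Kcnd2, 0.77 for Kcnk2, 0.67 for Kcnc4, 0.64 for Kcnip2 and 0.63 for Kcnh6. It was 0.56 for Kcna5, 0.55 for Kcnk3, 0.51 for Kcnj9, 0.39 for Kcnip3 and 0.38 for Kcnh2. For Kcne3 it was -4.97, a fitted value that depends on the prior count, since 2 and 8 reads stand behind its P30 effect, and single omissions gave -7.89 to -4.43. All groups hold 2 or 3 libraries, so no library was tested as standing apart from its own group.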

How the results depend on the processing

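Of the alternative values for calls of single genes, 2377 kept direction and call and 480 kept direction only, with none turned. Most of these values are single omissions, many of them of libraries from ages outside the comparison, so the totals do not measure how firm the calls are. At P17 the Y-linked covariate left 2 of the calls reported by gene and took 32. At P30 the fit of only its groups took all 5. Counts of members called higher and lower are given here for each setting that moved a count by over 1.5 times, and the cause was not tested. Calls over all genes moved as well. They went from 2900 to 229 at P17 with the Y-linked covariate, and from 1711 to 70 at P30 in the fit of only its groups. OIR at P14 (2 and 0 as reported) gave 4 and 1 without a count filter, 1 higher with the stricter filter or limma-voom, 1 higher with the lens covariate (neither Kcne3 nor Kcng2), 0 higher with the Y-linked covariate or without the 2 lens-rich OIR P17 libraries, and 1 lower with DESeq2 or only the groups compared. OIR at P17 (5 and 30) gave 3 higher with the lens covariate, 0 and 2 with the Y-linked covariate, and 2 and 8 without the lens-rich libraries. OIR at P30 (2 and 3) gave 1 higher with library totals, limma-voom, the replicate block or without the lens-rich libraries, 4 and 5 without a filter, 5 lower with DESeq2, 1 lower with the Y-linked covariate and 0 and 0 in the fit of only its groups. Control P30 against P17 (14 and 16) gave 8 and 9 with the lens covariate and 25 lower with library totals. The difference P17 minus P14 (0 and 0) gave 1 and 1 without a filter and 1 lower with DESeq2. The difference P30 minus P17 (14 and 1) gave 8 higher with library totals, 4 and 0 with the Y-linked covariate, 3 and 0 without the lens-rich libraries, and 0 lower with the stricter filter or the lens covariate. Leaving out each library gave, for higher and lower, 0 to 2 and 0 to 0 at P14, 3 to 6 and 19 to 35 at P17, 0 to 2 and 0 to 5 at P30, 8 to 19 and 7 to 13 for control P17 against P14, 12 to 15 and 9 to 18 for control P30 against P17, 0 to 0 and 0 to 0 for the first difference and 6 to 16 and 0 to 2 for the second. Where 1 library remained in a group, its spread was taken from the other groups. Replicate numbers share no stated origin, so they were not taken as pairs. Deviations of same-numbered control and OIR libraries from their group means correlated at -0.208 to 0.049. Such deviations are tied to each other in groups of 2 or 3 libraries, so these values cannot tell whether pairs exist. With the replicate block the OIR counts were 2 and 0, 6 and 28, and 1 and 3. With P14 numbers crossed (r = -0.129 as numbered) 1 member was called higher at P14. Among fixed genes without a call, 1133 values stayed the same, 14 became calls and 30 turned sign, all at adjusted p of 0.558 or more. At P14, leaving out each library gave log2 values of -0.19 to 0.01 for Kcnh1, -0.13 to 0.25 for Kcnj2, -1.23 to 1.62 for Kcnk5, -0.27 to 0.01 for Kcnma1, -0.07 to 1.04 for Kcnq1 and -0.03 to 0.08 for Kcnv2. The lens covariate gave 0.06 for Kcnh1, the Y-linked covariate 0.09 for Kcnh1, 0.56 for Kcnk5 and -0.02 for Kcnv2, and limma-voom 0.15 for Kcnk5. At P17 the omissions gave -0.13 to 0.12 for Kcnh1, -0.12 to 0.04 for Kcnj14 and -0.16 to 0.07 for Kcnj2, the unfiltered fit 0.01 for Kcnh1 and 0 for Kcnj2, and the Y-linked covariate 0.11 for Kcnj14 and -0.25 for Kcnk5. At P30 the omissions gave -0.19 to 0.05 for Kcnb2, -0.13 to 0.09 for Kcnc1, -0.11 to 0.05 for Kcnd2, -0.37 to 0.02 for Kcnh1 and -0.42 to 0.02 for Kcnj13, and library totals gave -0.01 for Kcnip3. Depth limits genes such as Kcne3, Kcnj15 and Kcnv1, whose groups hold few reads.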
